A study of Mus musculus with 7 samples.

Results

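The genes described here are the *Ccl21* copies and *Ccl19*, the mouse genes for the ligands of the chemokine receptor CCR7. They were chosen by symbol, as *Ccl21a*, *Ccl21b*, *Ccl21a.1*, *Ccl21b.1* and *Ccl19*, where the suffix marks a second entry of a symbol, and are 5 of the 20839 genes listed in any library. Of the 5 members, 4 were listed: *Ccl21a*, *Ccl21b.1* and *Ccl19* in all 7 libraries and *Ccl21a.1* in 6, while no library listed *Ccl21b* without a suffix.

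The libraries are 10x droplet single-cell RNA-seq of EpCAM+ CD45- thymic epithelial cells (TECs), each made from 3 pooled thymi, so each condition is 1 library and the data hold no replicate. Both isotype control libraries (week 2, age 4 weeks; week 10, age 12 weeks) and the 4 anti-RANKL libraries (week 2, 4, 6 and 10, ages 4, 6, 8 and 12 weeks) came from C57BL/6 mice given 3 treatments of 100 µg antibody within 1 week. Blocking RANKL, the ligand of the receptor RANK, transiently removes medullary TECs (mTECs) whose development needs that signal. The remaining library came from mice aged 6 weeks with the alleles Aire-CreERT2-R26-CAG-Stopfl-zsGreen (strain C57BL/6) after 2 mg tamoxifen on alternate days over 10 days, in which cells that express *Aire* are marked by a Cre driven from that gene. Median depth lay between 4299.5 UMIs per cell (anti-RANKL week 6) and 16809 (isotype control week 2), and 50 cell barcodes occurred in more than 1 library, with at most 7 shared by any pair.

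CCR7 guides T cells and dendritic cells towards CCL21 and CCL19. In the thymus, CCL21 made by mTECs draws positively selected thymocytes from the cortex into the medulla, where self-reactive cells are removed. The mouse genome carries several near-identical *Ccl21* genes next to *Ccl19*: *Ccl21a* encodes the form with serine at the variable residue and the other copies encode the leucine form, and the *plt* deletion, which removes *Ccl21a* and *Ccl19*, leaves mice with few T cells in lymph nodes.

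The copies differ so little that the sequences themselves set what counting can tell apart. In GENCODE vM21 (GRCm38), *Ccl21a* lies on the minus strand at chr4:42772860-42773993 and *Ccl19* on the same strand at chr4:42754525-42756577. *Gm21541*, which RefSeq names Ccl21d, lies at chr4:41903610-41904743, *Gm13304* at chr4:42114817-42115917, *Ccl21b* at chr4:42255767-42256432 and *Gm10591* at chr4:42612195-42612860, all on the plus strand. RefSeq gives *Ccl21b* and *Ccl21c* as synonyms of both *Gm21541* and *Gm13304*. Those Gm entries were added here after the files had been seen, because both were counted in all 7 libraries. Further models named *Ccl21a* or *Ccl21b* sit on the scaffolds JH584294.1, GL456350.1 and JH584293.1, and the files do not say which model a suffixed entry stands for.

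Over the 870 bases of its transcript, *Gm21541* differed from *Ccl21a* at 6 positions, counted from 1 at the first base of the *Ccl21a* transcript: G24A, T159A, C269T, C640T, T812C and G856A. *Gm13304*, whose transcript of 837 bases begins later, carried the last 5 of these, and the 402-base coding models of *Ccl21b* and *Gm10591* carried T159A and C269T. Coding sequence runs from base 76 to base 477 of *Ccl21a*, so only T159A and C269T change the coding part and the last 3 lie in the 3′ UTR, the part of the message nearest to where 3′ libraries read. The coding windows around both coding differences are shown with the differing base in capitals, first T159A and then C269T.

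Ccl21a, bases 145 to 173: agtgatggagggggTcaggactgctgcct
Gm21541, Gm13304, Ccl21b and Gm10591, same bases: agtgatggagggggAcaggactgctgcct
Ccl21a, bases 255 to 283: ggcaatcctgttctCaccccggaagcact
Gm21541, Gm13304, Ccl21b and Gm10591, same bases: ggcaatcctgttctTaccccggaagcact

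Of the 840 different 31-base words in the *Gm21541* transcript, 677 (80.6%) also occur in *Ccl21a*. A read that lies within such a stretch fits both genes, and whether such reads were dropped or assigned was not tested. The GENCODE models of *Ccl21b* and *Gm10591* hold only 402 coding bases, without a 3′ UTR. Every split of UMIs among the copies below is therefore uncertain, as it depends on the gene models and on how such reads were counted. Most of the copies in the RefSeq promoter table also share their upstream sequence. In that table (GRCm38.p6), the 250 bases before the start of *Ccl21a* (chr4:42773992-42774241, minus strand) differed from those of Ccl21d (chr4:41903363-41903612, plus strand) at 1 of 249 aligned bases, and from those of *Gm13304* and *Gm10591* at 2. The table's *Ccl21b* entry is the exception: its 250 bases, at chr4:42172870-42173119 on the plus strand, could not be aligned with those of *Ccl21a*, and GENCODE places its *Ccl21b* model elsewhere, as given above. Capitals mark the bases that differ, in *Ccl21a* from Ccl21d, *Gm13304* or *Gm10591* and in Ccl21d from *Ccl21a*.

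Ccl21a: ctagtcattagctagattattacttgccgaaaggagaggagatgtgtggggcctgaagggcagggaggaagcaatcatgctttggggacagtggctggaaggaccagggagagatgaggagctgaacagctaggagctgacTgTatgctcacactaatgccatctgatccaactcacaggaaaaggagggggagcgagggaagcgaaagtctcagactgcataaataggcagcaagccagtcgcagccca
Ccl21d: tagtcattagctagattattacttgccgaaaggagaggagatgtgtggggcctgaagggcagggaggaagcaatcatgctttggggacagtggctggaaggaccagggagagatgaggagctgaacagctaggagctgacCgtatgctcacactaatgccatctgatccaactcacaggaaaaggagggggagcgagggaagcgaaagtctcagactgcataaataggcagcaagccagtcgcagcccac

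The NF-κB consensus, searched on both strands, was not found in these 250 bases of either gene, nor in those of *Ccl19*. Neither was TATAAA. Over all 32817 promoters in the table, 7.25% held the NF-κB consensus and 12.4% held TATAAA, and a missing match says only that these letters are not in the window.

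*Ccl21a* took almost all of the UMIs counted for the *Ccl21* members. Of 913161 such UMIs, 99.63% were *Ccl21a* (exact binomial 95% interval, 99.62 to 99.64%), 0.358% were *Ccl21b.1* (3265 UMIs) and 0.0103% were *Ccl21a.1* (94 UMIs). With *Gm21541* (8020 UMIs) and *Gm13304* (1630 UMIs) counted as copies, *Ccl21a* held 98.6%. By UMI total, *Ccl21a* ranked 2 or 3 among all genes at anti-RANKL weeks 2, 4 and 6 and in the lineage tracing library, and it ranked 53 in isotype control week 2, 22 in isotype control week 10 and 19 in anti-RANKL week 10 (UMI totals, not divided by gene length).

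The level of *Ccl21a*, as UMIs per 10000 UMIs of the library, was 28.8 in isotype control week 2 and 39.9 in isotype control week 10. After anti-RANKL it was 174 at week 2, 201 at week 4, 127 at week 6 and 45.0 at week 10. The lineage tracing library stood at 179. The lineage tracing and the week 2, 4 and 6 anti-RANKL libraries were thus the high ones, and the week 10 anti-RANKL library stood next to its control. Every pair of neighbours in this order differed beyond its exact Poisson interval, which covers counting error only: the widest interval, at week 6, ran from 126 to 128.

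The level of *Ccl19* spanned a narrower range, 2.43-fold between the lowest and highest library against 6.98-fold for *Ccl21a*. It was 4.68 UMIs per 10000 in isotype control week 2, 5.67 in isotype control week 10 and 3.64 in the lineage tracing library. It was 6.19, 8.43, 8.84 and 5.40 at weeks 2, 4, 6 and 10 after anti-RANKL. The lineage tracing library, which shared its high *Ccl21a* with anti-RANKL weeks 2 and 4, was therefore the lowest of all in *Ccl19*. The closest neighbours were weeks 4 and 6 after anti-RANKL, at 1.05-fold (interval 1.01 to 1.09), and anti-RANKL week 10 and isotype control week 10, also at 1.05-fold (interval 1.01 to 1.09). No interval of a neighbouring pair held 1, but these cover counting error only, and the spread between libraries of 1 condition is not known.

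**Figure D1:**
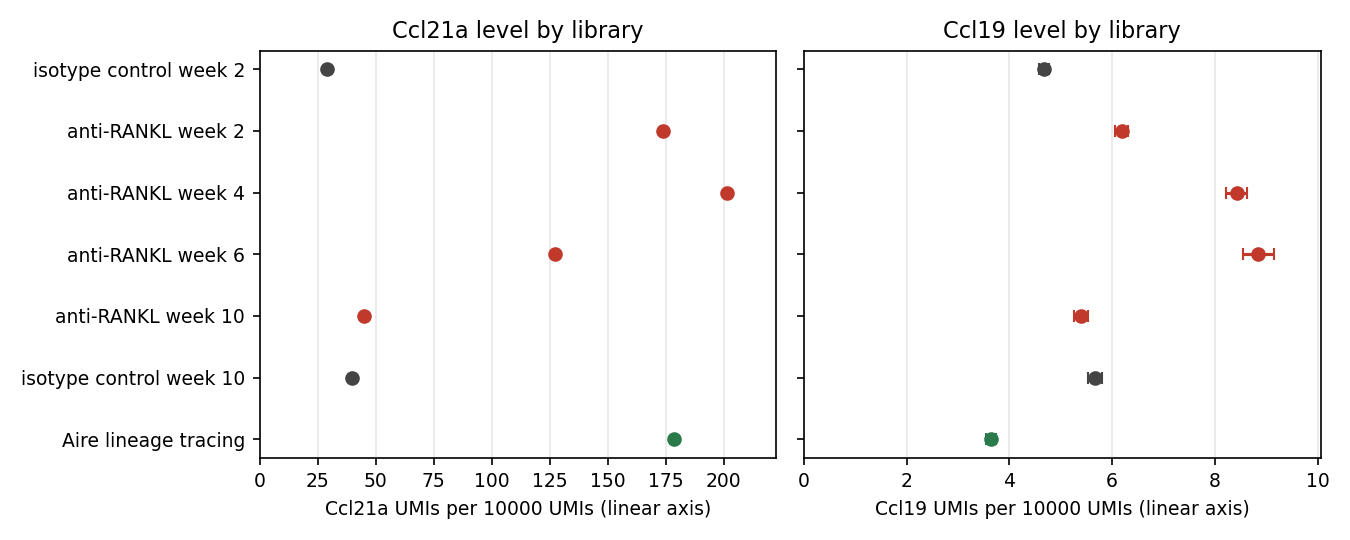
Level of *Ccl21a* (left) and *Ccl19* (right) in each of the 7 libraries, as UMIs per 10000 UMIs on linear axes from 0; bars are exact Poisson 95% intervals, mostly narrower than the points. *Ccl21a* reached 179 in the lineage tracing library and 201 at anti-RANKL week 4, whereas *Ccl19* was lowest in the lineage tracing library at 3.64.

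At week 2, *Ccl21a* was 6.02-fold higher after anti-RANKL than in the isotype control (interval 5.97 to 6.07), with 261978 against 64034 UMIs. *Ccl21b.1* was 13.5-fold higher (1081 against 118 UMIs, interval 11.1 to 16.4) and *Ccl19* 1.32-fold higher (9340 against 10381 UMIs in libraries of 15089673 and 22197691 UMIs, interval 1.29 to 1.36). Of the 3 members with at least 20 UMIs over both libraries, the minimum for comparing a gene, 2 were at least 2-fold higher, while 9.23% of the 17153 genes compared were at least 2-fold higher and 21.9% at least 2-fold lower. *Ccl21a.1* had 16 UMIs after anti-RANKL and was not listed in the control. The authors kept genes found in at least 3 cells of a library, although each deposited library lists 11 to 76 genes found in fewer of its cells. A gene that is not listed can thus have had UMIs in 1 or 2 cells. Such genes were taken as 0 here, and they make up 1051 of the 3752 genes at least 2-fold lower at week 2. With 1 library a side these are differences between libraries, and no test between conditions is possible.

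At week 10 none of the 3 members reached a 2-fold difference, while 4.29% of the 16445 genes compared were at least 2-fold higher and 3.12% at least 2-fold lower. *Ccl21a* was 1.13-fold higher after anti-RANKL (51530 against 53080 UMIs, interval 1.12 to 1.14). *Ccl19* was 0.953 times its control level (6179 against 7541 UMIs, interval 0.921 to 0.985), and *Ccl21b.1* 0.870 times (107 against 143 UMIs, interval 0.671 to 1.13). The isotype controls, of different age and week, stood at 28.8 and 39.9 UMIs per 10000 in *Ccl21a*, a wider gap than that at week 10. Weeks 4 and 6 have no control of their own age.

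The minor entries did not follow *Ccl21a* in a fixed proportion. Per 1000 *Ccl21a* UMIs, *Ccl21b.1* had 1.84 UMIs in isotype control week 2, 2.69 in isotype control week 10 and 2.08 in anti-RANKL week 10. It had 4.13, 6.00 and 18.3 at anti-RANKL weeks 2, 4 and 6, and 0.0108, from 3 UMIs, in the lineage tracing library. That last library is the one whose reads were aligned to a reference with an added ZsGreen transcript, and what the reference, the mice and the library each contributed cannot be told apart. Another suffixed entry, *Ccl27a.1*, was listed in that library alone, with UMIs in 2.02% of its cells (28 UMIs). Whether a suffixed entry stands for the same gene model in both references is not known.

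*Gm21541* gave 5.39 UMIs per 1000 *Ccl21a* UMIs in isotype control week 2, 3.99 in isotype control week 10, 5.18 in anti-RANKL week 10 and 5.22 in the lineage tracing library. It gave 9.97, 12.7 and 24.5 at anti-RANKL weeks 2, 4 and 6. *Gm13304* ranged from 0.219 to 2.75 outside the lineage tracing library and was 4.03 in it, where *Ccl21b.1* was nearly missing. *Ccl21a.1* peaked at week 6 too, with 0.774 per 1000 (38 UMIs), against at most 0.144 elsewhere. All 4 minor entries thus had their highest ratio at anti-RANKL week 6, except *Gm13304*, which was highest in the lineage tracing library. Anti-RANKL weeks 6 and 4 were also the shallowest libraries, with medians of 4299.5 and 4779 UMIs per cell and 3857876 and 7563528 UMIs in all; the part of depth in these ratios was not tested.

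**Figure D2:**
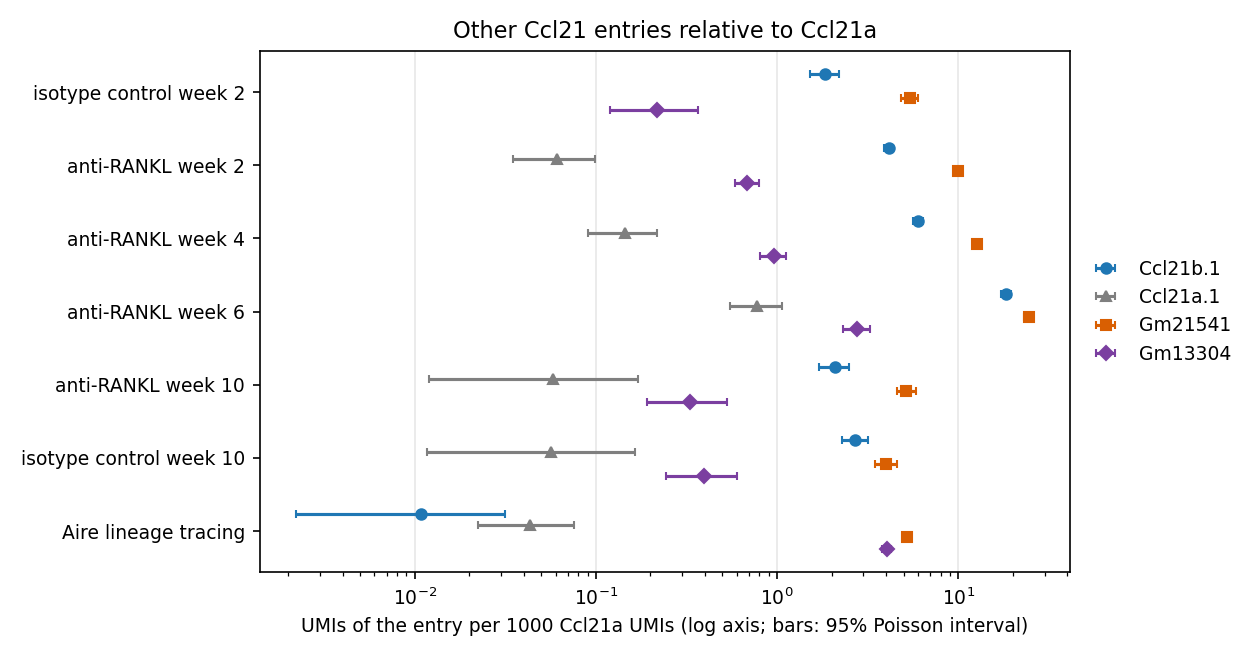
UMIs of *Ccl21b.1*, *Ccl21a.1*, *Gm21541* and *Gm13304* per 1000 *Ccl21a* UMIs in each library, on a log axis with exact Poisson 95% intervals; an entry that is not listed is not drawn. *Ccl21b.1* lay between 1.84 and 18.3 in 6 libraries and at 0.0108 in the lineage tracing library.

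The ratio within a library was also taken over cells binned by their *Ccl21a* UMIs. Those UMIs are the ratio's denominator, so the binning itself can raise the ratio in the low bins, and no value for a constant ratio in such bins was computed. For *Gm21541*, in cells with 1 to 20 *Ccl21a* UMIs against cells with over 400, it was 11.4 against 3.55 per 1000 in isotype control week 2, 8.00 against 3.31 in isotype control week 10 and 13.7 against 2.17 at anti-RANKL week 10. At anti-RANKL week 4 it was 27.8 in cells with 1 to 20 and 10.1 to 13.7 in the richer bins. These libraries and week 6 had their highest ratio in the poorest cells. At anti-RANKL week 2 the ratio was 15.3 in cells with 1 to 20 (interval 11.6 to 19.8, 57 UMIs), 17.4 in those over 20 and up to 100, and 10.9, 10.5 and 9.20 in the bins over 100, 200 and 400. At week 6 it was 28.7, 24.5, 24.0 and 25.4 in the bins from 1 and over 20, 100 and 200, and 6.15 over 400, from 6 UMIs in 2 cells. The lineage tracing library ran from 3.33 to 6.24. *Ccl21b.1* at week 6 went the other way, with 4.29 in cells with 1 to 20 (13 UMIs) and 16.4 to 20.6 in the richer bins.

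Cells with a minor entry nearly all held *Ccl21a* too, as did most other cells. Of 7904 cells with a *Ccl21a* UMI, 1619 (20.5%, exact binomial interval 19.6 to 21.4%) also held *Ccl21a.1* or *Ccl21b.1*, and 2 cells held one of these without *Ccl21a*. With *Ccl21a* and the minor entries detected independently over all pooled cells, 1515.7 of the 1621 cells with a minor entry would have held *Ccl21a*. Little can therefore be read from the 1619 counted. If every minor UMI had fallen on cells in proportion to their *Ccl21* UMIs within each library, 1690.5 cells would have held one, against 1621 counted. With the Gm entries included, 3282 of the 7904 cells (41.5%) held a second entry and 11 held one without *Ccl21a*. The share with *Ccl21a.1* or *Ccl21b.1* was 1.08% for lineage tracing, 8.10% and 8.63% for the controls and 8.93% in anti-RANKL week 10, and 41.2%, 37.4% and 39.7% at anti-RANKL weeks 2, 4 and 6. Thinned to 2000 UMIs per cell, the shares were 0.155% for lineage tracing, 3.28% and 4.60% for the controls, 4.64% in anti-RANKL week 10, and 16.8%, 21.9% and 30.6% at weeks 2, 4 and 6, so that week 2 went from the highest to the lowest of these 3. Over all libraries the thinned share was 12.2%, and *Gm21541* was met in 21.01% of *Ccl21a*-positive cells instead of 33.6%.

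Single cells fell into a low and a high range of *Ccl21a*. A cutoff of 4, the number the study uses for the lineage tracing library, was applied to all libraries on the deposited scale, ln(1 + UMIs per 10000). The study's methods give a smaller scale factor, on which 4 would stand for a higher level, so whether the 2 cutoffs are the same is not known. On the deposited scale it lay in the gap: between 2.84% and 8.36% of a library's cells were within 0.5 of it. Above it were 13.9% of cells in isotype control week 2 (162 of 1163, exact binomial interval 12.0 to 16.1%) and 16.6% in isotype control week 10 (211 of 1271). After anti-RANKL the share was 56.3% at week 2, 64.3% at week 4, 46.2% at week 6 and 20.7% at week 10, and it was 64.5% in the lineage tracing library. Week 6 lay between the other early libraries and the controls, and week 10 was 1.25 times its control. At a cutoff of 3, however, week 6 stood at 64.4%, above week 2 at 60.1%, with 37.9% of its cells within 0.5 of that cutoff. These are shares of the sorted cells of a library, which also change when other cells are fewer: Aire-positive-like cells, a cluster named by its markers, were 29.2% of isotype control week 2 and 4.501% of anti-RANKL week 2. Numbers of cells per thymus were not analysed here. In cells thinned to 2000 UMIs the shares were 13.7%, 16.6%, 56.4%, 63.9%, 45.7%, 20.9% and 64.4% in the same order.

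Inside the high cells, which the cutoff on *Ccl21a* itself selects, the *Ccl21a* level was 224 and 249 UMIs per 10000 in the controls of weeks 2 and 10, 306, 301, 281 and 266 at anti-RANKL weeks 2, 4, 6 and 10, and 293 in the lineage tracing library. From control to anti-RANKL at week 2, the share of all UMIs of the library that came from high cells went from 11.5% to 55.3%, a 4.81-fold difference, and the level inside them was 1.36-fold higher. High cells held between 89.4% and 97.7% of a library's *Ccl21a* UMIs.

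**Figure D3:**
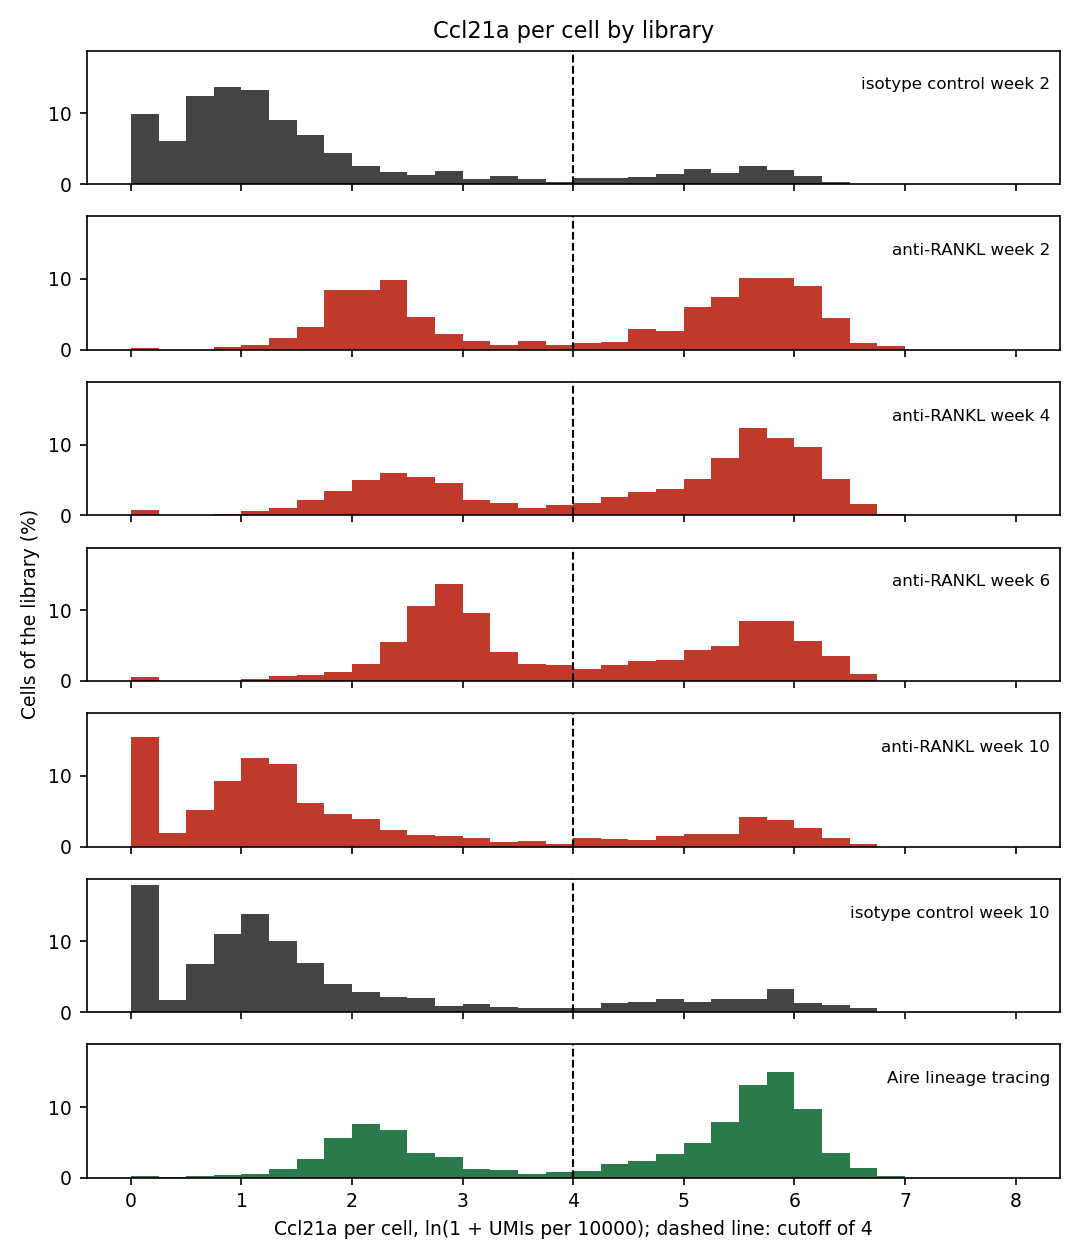
*Ccl21a* per cell in each library, as the percent of cells in bins of ln(1 + UMIs per 10000); the dashed line is the cutoff of 4. The high range centred on medians of 5.36 to 5.71 in all 7 libraries, and the low range moved from a median of 1.01 in isotype control week 2 to 2.83 in anti-RANKL week 6.

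The low range moved with the library. The median of cells at or under the cutoff was 1.01 and 1.08 in the controls and 1.16 in anti-RANKL week 10, but 2.21, 2.45 and 2.83 at anti-RANKL weeks 2, 4 and 6 and 2.22 in the lineage tracing library. As a level, these cells held 3.46, 3.73 and 3.89 UMIs per 10000 in the first 3 and 10.6, 13.4, 18.1 and 10.7 in the other 4, which is between 6.02% and 14.2% of their library's own level.

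Cells that should lack the gene had *Ccl21a* UMIs as well. Over all libraries, 233 cells held a UMI of *Ptprc*, which encodes the leukocyte antigen CD45 against which the cells were sorted, and 93.6% of them had a *Ccl21a* UMI (interval 89.6 to 96.4%, median depth 10161 UMIs), against 93.5% of the 8220 cells without *Ptprc* (median depth 8014.5). A *Ccl21a* UMI therefore did not separate these cells from the rest. Of the 233, 192 also had an *Epcam* UMI and 40 were above the *Ccl21a* cutoff. Among the 41 with no *Epcam* UMI, 82.9% had a *Ccl21a* UMI, none was above the cutoff, and the level was 6.18 UMIs per 10000, against 104 in cells without *Ptprc*.

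By library, the level in those *Ptprc*-positive, *Epcam*-free cells was 1.43 UMIs per 10000 in isotype control week 2 (5 cells), 2.59 in isotype control week 10 (3 cells) and 0.9899 in anti-RANKL week 10 (5 cells). It was 8.32, 13.3 and 18.1 at anti-RANKL weeks 2, 4 and 6 (6, 7 and 2 cells) and 9.03 in the lineage tracing library (13 cells). The same 4 libraries were high as for the low range of all cells. All cells at or under the cutoff were close to these cells in those 4 libraries (10.6, 13.4, 18.1 and 10.7) and above them in the other 3 (3.46, 3.73 and 3.89). The part of free RNA in low *Ccl21a* values was not tested.

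*Ccl19* was seen in 48.9% of the 233 *Ptprc*-positive cells (interval 42.3 to 55.5%) and in 68.8% of the others. With no *Epcam* UMI the share was 29.3%, or 12 of 41 cells, at 0.949 UMIs per 10000 against 5.55 in cells without *Ptprc*. Among *Ptprc*-positive cells the *Ccl19* level was 17.6% to 49.8% of that of cells without *Ptprc* at anti-RANKL weeks 2, 4 and 6 and in the lineage tracing library, and 99.0%, 115% and 145% in isotype control week 2, isotype control week 10 and anti-RANKL week 10. Other *Ccl21* entries were found in 18 of the 233 cells (39 UMIs) and in none of the 41.

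Lymphatic endothelial cells, another source of CCL21, left almost no trace in the high cells. The 4 lymphatic endothelial markers summed to at most 0.0612 UMIs per 10000 in cells above the cutoff, with *Prox1* in 0.888% of them and *Mmrn1* at 0, against up to 0.182 in the cells under it. The 4 epithelial markers, *Epcam*, *Krt8*, *Krt18* and *Foxn1*, summed to 33.2 to 47.9 in cells above the cutoff. The 6 fibroblast and pericyte markers, all detected, summed to 1.92 to 5.04 above the cutoff and 1.48 to 12.0 under it, with *Dcn* in 48.9% and 37.7% of cells. The 8 dendritic and myeloid markers summed to 0.125 to 2.53 above the cutoff, with *Lyz2* in 12.9% of cells and *Cd209a* at 0, and to 1.26 to 8.92 under it. The part of these cells in the *Ccl21a* and *Ccl19* levels was not tested.

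All cells were clustered without the member genes, and clusters were named by marker lists that do not hold them. *Ccl21a* was highest in 3 groups. Over the 7 libraries the level in the 2376 Ccl21a-high-like cells (*Krt5*, *Krt14*, *Itga6*, *Ly6a*) ranged from 238 to 357 UMIs per 10000, and 96.9% of these cells were above the cutoff. They joined 2 clusters, the larger of 1452 cells led by *Gpx3*, *Cxcl14*, *Ccl11*, *Col6a2* and *Acta2*, which hold matrix and contractile genes, and the smaller of 924 cells led by the stress genes *Atf3*, *Nr4a1* and *Fos*. Neither had a marker of the class among its top 10 genes by fold. Of the 9 markers on the list, 8 reached 1.5-fold in the larger cluster and 6 in the smaller. At resolution 1, clusters of 905 and 807 cells kept the name. A cluster of 629 cells with the same best list fell short of it. The smaller cluster held 50.0% of the class in isotype control week 2, 46.7% in isotype control week 10, 35.3% and 33.3% at anti-RANKL weeks 2 and 10, and 31.4% to 41.4% in the other 3 libraries. The class held 61.9% to 75.0% of each library's *Ccl21a* UMIs. In the 471 cTEC-like cells (*Prss16*, *Psmb11*), cells of the cortex, it ranged from 74.1 to 202, with 67.3% of cells above the cutoff. Cluster 5, which no marker list named and whose leading genes were haemoglobin genes, *Matn1*, *CR974586.5* and *Ccnd1*, ranged from 43.8 to 263.

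Against the T cell-like cluster of the same library, which held 14.02 to 40.9 UMIs per 10000 in 111 cells, the Ccl21a-high-like and cTEC-like cells were higher in *Ccl21a* beyond the counting intervals in 7 of 7 libraries. Cluster 5 and cluster 2, led by *Dcn*, *Prss23* and *Prelp*, were so in 6 of 7. Aire-positive-like and microfold-like cells were above it in 0 of 7 and below it in 6 of 7, and neuroendocrine-like cells in 0 of 6 and 5 of 6. Tuft-like cells were above in 1 of 7 and below in 4, and the cycling TAC-TEC-like cells were above in 4 and below in 2. The T cell-like cluster was not T cells alone: its leading genes include *C1qc* and *Tyrobp*, which myeloid cells express, and *Jchain* of plasma cells, and at resolution 1 the clustering gave 69 T cell-like cells and a separate 40 dendritic or myeloid-like cells. Of the T cell-like cells, 12 of 111 were above the *Ccl21a* cutoff and 50 had an *Epcam* UMI, so their level is no pure background; whether these droplets held an epithelial cell too was not tested.

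*Ccl19* was spread differently over the same cells. Aire-positive-like cells, which display tissue antigens under *Aire*, held 7.57 to 13.1 UMIs per 10000, and microfold-like cells (*Gp2*, *Ccl20*) 3.27 to 17.1, the extremes of the latter from 8 and 16 cells. Both were low in *Ccl21a*, with medians over libraries of 11.3 and 13.3 against 309 in Ccl21a-high-like cells. Cluster 2 (0.257 to 1.37), tuft-like cells (0.402 to 1.16), whose cluster was led by the hormone gene *Pth*, and the T cell-like cluster (0.242 to 2.37) held little. Aire-positive-like cells, cluster 5 and TAC-TEC-like cells were above the T cell-like cluster in *Ccl19* in 7 of 7 libraries, and Ccl21a-high-like cells, microfold-like cells and cluster 9 in 6 of 7. The cTEC-like cells were so in 5 of 7, Late-Aire-like cells in 1 of 7, and tuft-like cells and cluster 2 in 0 of 7.

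**Figure D4:**
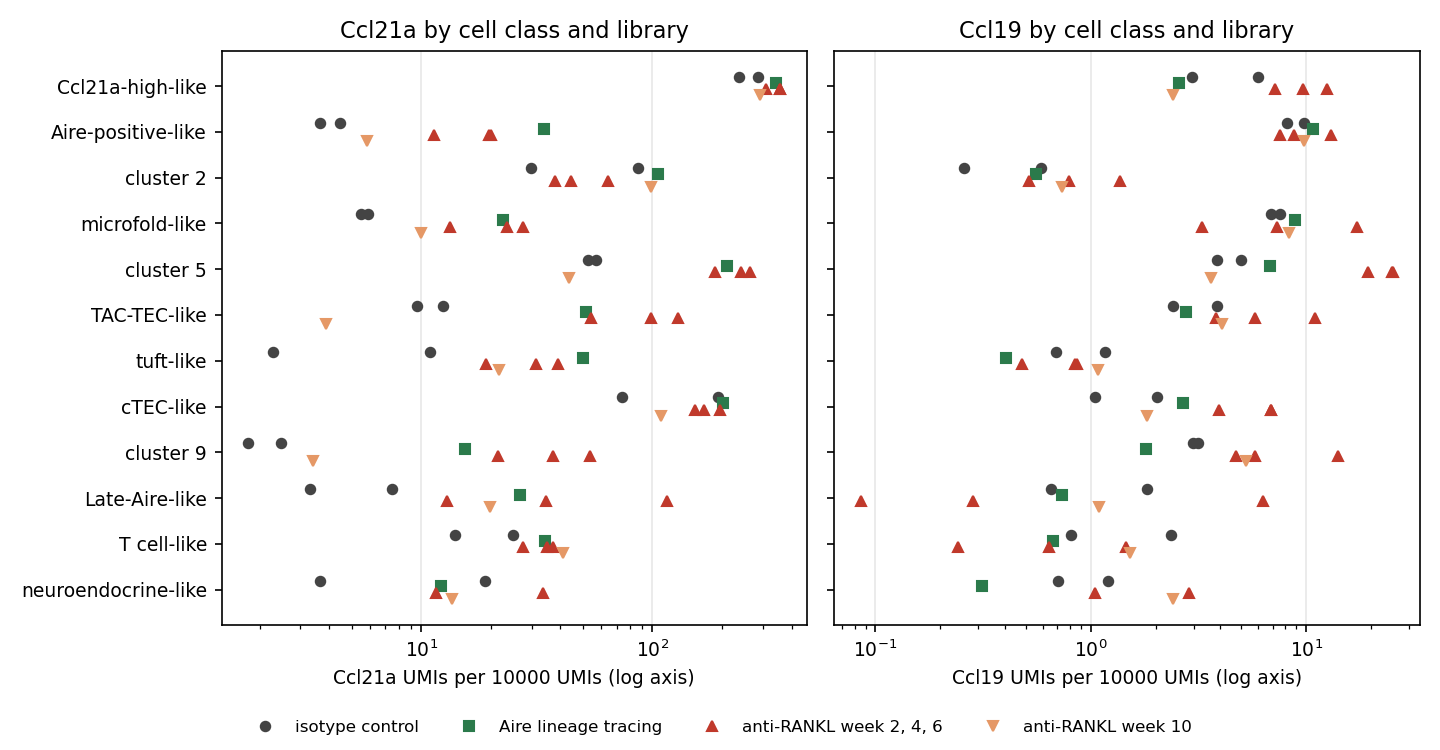
*Ccl21a* (left) and *Ccl19* (right) by cell class, as UMIs per 10000 on log axes, 1 point per library with at least 5 cells of the class. Ccl21a-high-like cells stayed between 238 and 357 for *Ccl21a* in all libraries, whereas in cluster 5 *Ccl19* was 19.4 to 25.3 at anti-RANKL weeks 2, 4 and 6 and 3.61 to 6.78 in the other libraries.

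Inside Ccl21a-high-like cells, *Ccl19* differed more between the week 2 libraries than *Ccl21a* did, and less than *Ccl21b.1*. It was 2.96 and 5.98 UMIs per 10000 in the controls of weeks 2 and 10 and 2.57 in the lineage tracing library, 7.14, 9.69 and 12.5 at anti-RANKL weeks 2, 4 and 6, and 2.40 at week 10. The 3 early anti-RANKL libraries were above all 4 others. At week 2 the difference was 2.41-fold (3547 against 494 UMIs, interval 2.19 to 2.65), where 6.54% of 11020 genes were at least 2-fold higher within this class and 3.74% at least 2-fold lower. *Ccl21a* itself was 1.498-fold higher there and *Ccl21b.1* 3.48-fold (756 against 73 UMIs). At week 10 *Ccl19* was 0.401 times its control in this class (277 against 711 UMIs, interval 0.348 to 0.462), where 3.22% of 8576 genes were at least 2-fold lower and 3.7% at least 2-fold higher.

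In cluster 5 *Ccl19* was 3.84 and 5.00 in the controls and 6.78 in the lineage tracing library, 19.4, 25.3 and 25.1 at anti-RANKL weeks 2, 4 and 6, and 3.61 at week 10, from 40 to 158 cells a library. *CR974586.5*, the gene most like *Ccl19* across cells, is among this cluster's leading genes and was not left out of the clustering. The early anti-RANKL values lay far outside those of the other 4 libraries. In cTEC-like cells *Ccl19* was 6.85, 6.87 and 3.92 at weeks 2, 4 and 6 against 1.04 to 2.69 elsewhere. Aire-positive-like cells had 7.57, 8.76 and 13.1 at weeks 2, 4 and 6 against 8.11 to 10.7 elsewhere, so week 2 lay below, week 4 within and week 6 above the range of the other libraries.

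The classes that gave the *Ccl19* UMIs of a library differed too. Aire-positive-like cells gave 54.5% and 49.2% of the *Ccl19* UMIs in the controls of weeks 2 and 10 and 48.2% at anti-RANKL week 10, but 8.45%, 2.89% and 18.2% at anti-RANKL weeks 2, 4 and 6. Ccl21a-high-like cells and cluster 5 gave 4.76% and 4.01% in isotype control week 2, and 38.0% and 30.1% at anti-RANKL week 2. The number of cells in each class differed between these libraries as well: besides the Aire-positive-like cells given above, Ccl21a-high-like cells were 10.3% of isotype control week 2 and 36.4% of anti-RANKL week 2. For Ccl21a-high-like cells at week 2, the share of cells was 3.53 times that of the control, the share of all UMIs 4.38 times and the *Ccl19* level inside 2.41 times, while *Ccl19* over the whole library was 1.32-fold higher.

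A split by the *Ccl21a* cutoff alone, without clusters, showed this too. In cells above it *Ccl19* was 3.53 UMIs per 10000 against 4.83 in other cells of isotype control week 2, 6.52 against 5.52 in isotype control week 10, 3.58 against 5.74 at anti-RANKL week 10 and 2.98 against 4.62 in the lineage tracing library. At anti-RANKL weeks 2, 4 and 6 it was 9.22 against 2.45, 11.9 against 1.81 and 12.9 against 5.95, ratios of 3.76, 6.59 and 2.17 where the others had 0.623 to 1.18. In cells thinned to 2000 UMIs, *Ccl19* was found in 62.7% of high and 17.4% of other cells at anti-RANKL week 2, and in 42.8% and 40.3% in its control.

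**Figure D5:**
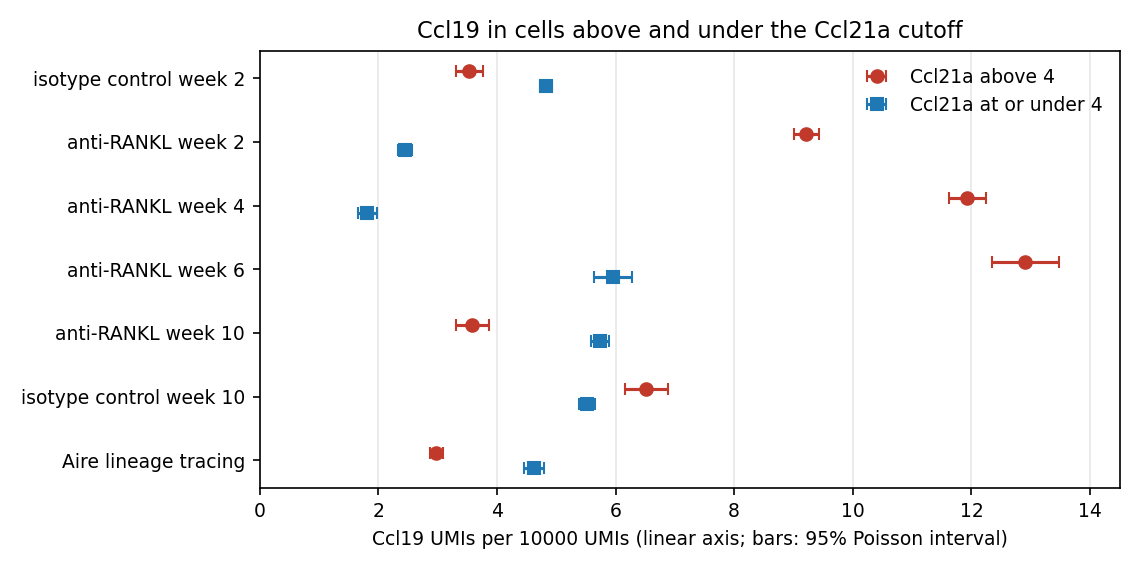
*Ccl19* level in cells with *Ccl21a* above and at or under 4 on the deposited scale, by library, as UMIs per 10000 on a linear axis from 0 with exact Poisson 95% intervals. High cells led 2.17-fold to 6.59-fold at anti-RANKL weeks 2, 4 and 6 and had 0.623 to 1.18 times the level of other cells in the other 4 libraries.

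Across the cells of a library, the Pearson correlation of *Ccl19* with *Ccl21a* on the deposited scale was 0.57 and 0.58 at anti-RANKL weeks 2 and 4 and 0.37 at week 6, but 0.10 and 0.04 in the controls, 0.11 in the lineage tracing library and -0.05 at anti-RANKL week 10 (730 to 1475 cells that share a library and its depth, so no p is given). *Ccl19* was also concentrated: the 10% of cells richest in it held 47.9% to 59.5% of its UMIs, with a maximum of 257 UMIs in a cell and a median of 1 to 4.

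The 10 genes most like *Ccl21a*, by the mean correlation over 7 libraries among 7306 genes found in at least 5% of the cells of each, were *Krt5* (0.63), *Gm21541* (0.58), *Cald1* (0.56), *Htra1* (0.54), *Wfikkn2* (0.52), *Krt14* (0.50), *Tagln* (0.49), *Zfp36l1* (0.49), *Ifitm3* (0.48) and *Tpm2* (0.48). *Krt5* and *Krt14* are the basal keratins and, with *Ifitm3*, are among the markers that named the Ccl21a-high-like clusters. *Cald1*, *Tagln* and *Tpm2* encode actin-binding proteins of contractile cells, and *Gm21541* is the *Ccl21* copy described above. *Ccl19* ranked 148 by this measure, with a mean of 0.25.

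The genes most like *Ccl19* were of another kind. They were *CR974586.5* (0.56), *Gm13305* (0.46), *Ubd* (0.45), *Gm2564* (0.44), *Srgn* (0.42), *Cd74* (0.37), *H2-Eb1* (0.36), *Skint10* (0.34), *H2-Aa* (0.34) and *H2-DMb2* (0.34). *Cd74*, *H2-Eb1*, *H2-Aa* and *H2-DMb2* belong to antigen presentation by MHC class II. *Gm2564*, at chr4:42629719-42631714, is itself a near copy: 526 of the 677 different 31-base words of its transcript (77.7%) occur in *Ccl19*. *CR974586.5* lies on the scaffold JH584293.1, which also carries a *Ccl21b* model, and *Gm13305* on chromosome 4 between *Gm13304* and *Ccl21b*.

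The ratio of these entries to *Ccl19* differed between libraries, and not all in 1 direction. Per 1000 *Ccl19* UMIs *Gm2564* had 22.2, 40.3, 34.1 and 29.3 in isotype control week 2, isotype control week 10, anti-RANKL week 10 and the lineage tracing library. It had 64.2, 103 and 252 at anti-RANKL weeks 2, 4 and 6, so week 6 was highest here too. *CR974586.5* gave 140 to 262 per 1000 *Ccl19* UMIs in the first 4 and 484, 617 and 383 in the last 3, with its peak at week 4. *Gm13305* went the other way, with 3704, 3652, 3523 and 2916 in the first 4 and 2387, 1703 and 1542 in the last 3. At week 2 *CR974586.5* was present in 69.6% of *Ccl19*-positive and 6.53% of *Ccl19*-negative cells.

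Few of the other genes of the cluster on chromosome 4 could be compared. Of 6 entries of the *Ccl27*, *Il11ra* and *Fam205* families, 3 reached 20 UMIs over both week 2 libraries, and 2 of these were at least 2-fold lower after anti-RANKL, where 21.9% of all genes compared were: *Ccl27a*, a skin chemokine gene, at 1.62 against 3.79 UMIs per 10000 (0.428 times), and its copy *Ccl27b* at 0.0318 against 0.0996 (0.320 times). *Il11ra1*, the interleukin 11 receptor, was at 3.67 against 4.72 (0.777 times). Inside Ccl21a-high-like cells *Ccl27a* was at 0.831 against 1.09 and *Il11ra1* at 3.12 against 2.97.

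Of the 16 genes of the CCR7 axis and its regulators, 3 were at least 2-fold higher and 4 at least 2-fold lower at week 2 over all cells, against 9.23% and 21.9% of all genes compared, and 0 of 16 passed 2-fold at week 10, against 4.29% and 3.12%. The count of lower genes was near the share over all genes. Among the receptors, *Ccr7* was at 0.055 against 0.257 UMIs per 10000 (0.214 times; 83 against 570 UMIs), and the scavenger receptor *Ackr4*, which takes up CCL19, CCL21 and CCL25, at 0.392 against 0.129 (3.04-fold), but 1.03-fold inside Ccl21a-high-like cells (40 against 13 UMIs). *Cxcr4*, the receptor for CXCL12, was 0.425 times its control (13 against 45 UMIs). *Ackr3*, a scavenger receptor for CXCL12, was 3.81-fold higher from 57 and 22 UMIs, and *Ackr2*, a scavenger of inflammatory chemokines, was not listed after anti-RANKL and had 21 UMIs in the control; it counts among the 4 lower genes with its unlisted value taken as 0. *Cxcl12*, a cortical chemokine, was 4.31-fold higher over all cells and 1.88-fold inside the class, and *Ccl25* 1.25-fold and 1.70-fold. *Lta*, a ligand gene of the lymphotoxin pathway that acts on mTECs, was 0.218 times and *Ltb* 0.522 times its control over all cells. Inside Ccl21a-high-like cells *Ltb* went the other way, at 0.316 against 0.174 UMIs per 10000.

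*Relb*, a subunit of non-canonical NF-κB, was at 0.619 and *Nfkb2* at 0.599 times the control over all cells at week 2, and *Ltbr* at 1.72-fold. *Map3k14*, the kinase of that pathway, was 1.40-fold and *Traf3*, its negative regulator, 0.988 times. Inside Ccl21a-high-like cells *Relb*, *Nfkb2* and *Ltbr* were 1.06-fold, 1.14-fold and 1.02-fold, with intervals of 0.917 to 1.24, 0.926 to 1.40 and 0.767 to 1.36. *Tnfrsf11a*, which encodes RANK, was 0.705 times its control over all cells and 0.941 times inside the class (interval 0.738 to 1.21). Of the 11 list genes with at least 20 UMIs inside the class, 1 was at least 2-fold higher at week 2, *Ackr3* with 26 against 0 UMIs, and at week 10, 1 of 10 was at least 2-fold lower, *Ltb* at 0.202 times its control. Over all genes in the class, 6.54% were at least 2-fold higher at week 2 and 3.22% at least 2-fold lower at week 10, so these counts are near the background.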

How the data were processed

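Each of the 7 libraries held EpCAM+ CD45- cells sorted from 3 pooled thymi of female mice, and each formed a group of 1 library, so no test between conditions was made. The authors aligned reads with Cell Ranger 2.2.0 to its reference package mm10-1.2.0, genome and gene models, adding a ZsGreen transcript where lineage was traced, and filtered cells in Seurat 2.3.4. The deposited values are natural log values, ln(1 + UMIs per 10000). Whole UMIs were recovered from them for 100.0% of values within 0.001, and all sums use those UMIs. The methods state another scale factor, but each cell summed to 10000 after undoing the log. Another 2 combined tables were not used.

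Levels are summed UMIs per 10000, with exact Poisson 95% intervals, shares have exact binomial intervals, and folds have exact conditional binomial intervals. All cover counting error only. A gene entered a comparison with at least 20 UMIs over both libraries, and called means at least 2-fold. Shares of cells were also computed after thinning each cell to 2000 UMIs, which left out 177 cells. Cells were clustered jointly in Seurat 5.3.0 under R 4.3.3 (20 dimensions, resolution 0.6, 2577 genes). Left out of the clustering were the members, *Gm21541*, *Gm13304*, the *Ccl27*, *Il11ra* and *Fam205* entries and the CCR7 list. *Gm2564*, *Gm13305* and *CR974586.5*, which correlate with *Ccl19*, were not left out. A cluster took a name where the mean log2 fold of its best marker list was at least 0.75 and 60% of that list reached 1.5-fold, a rule set after the clusters had been seen. The methods name no doublet step and no caller was run, but an alternative leaves out the 5% of cells with the most UMIs per library.

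The members and lists were chosen with earlier results of these data known. Named genes are the members, other entries of the *Ccl21*, *Ccl19*, *Ccl27*, *Il11ra* and *Fam205* families, 16 genes of the CCR7 axis, class markers and the 10 genes most correlated with *Ccl21a* or *Ccl19*, and *Gm21541* and *Gm13304* were added after the files had been seen. Alternatives varied the cells kept, depth per cell, weight of cells, denominator, cutoff (3 or 5), definition of leukocytes, library left out, clustering resolution and order of genes in the clustering. The fold and interval code was tested on simulated data. Figures were drawn with matplotlib 3.10.9, and sums and intervals came from pandas 2.3.3, scipy 1.17.1 and numpy 2.4.6 under Python 3.11.15.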

Additional observations from a re-analysis of the deposited data

Results flagged for a closer look

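*Ccl19* in Ccl21a-high-like cells differed in opposite directions at the 2 weeks that have a control: the log2 difference of anti-RANKL from isotype control was 1.27 at week 2 and -1.32 at week 10. Over all cells the same contrast for *Ccl19* gave 0.40 at week 2 and -0.070 at week 10. *Ccl21b.1* in Ccl21a-high-like cells also turned, from 1.80 at week 2 (756 against 73 UMIs) to -0.61 at week 10 (67 against 105 UMIs). Each arm is 1 library, so none of these differences between the weeks was tested.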

How the results depend on the processing

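Of 66 alternatives over 13 results, 40 left the value within its counting interval or, for the 3 results that are medians over libraries, within 1 SD over libraries, and 26 moved it. None turned the direction of a log2 difference, and the results that are plain percentages have no direction to turn. No paired analysis was possible because each group holds 1 library and the labels number no replicates.

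The share of *Ccl21a* among *Ccl21* UMIs was 99.5% thinned, 99.61% with cells weighted equally, and 99.47% to 99.72% with 1 library left out. It was 98.6% with the Gm entries, an alternative chosen after seeing the data. The week 2 log2 difference of the *Ccl21* sum, 2.59, became 2.62 without *Ptprc*-positive cells, 2.36 thinned, 2.64 without the deepest 5% of cells, 2.35 with equal weights and 2.62 with members and mitochondrial genes out of the total. At week 10, 0.17 became 0.34 thinned, 0.29 without the deepest cells and 0.36 with equal weights. For *Ccl19*, 0.40 at week 2 became 0.23 thinned and 0.35 with equal weights, and -0.07 at week 10 became -0.12 with equal weights. The log2 difference of the share above the cutoff at week 2, 2.02, became 2.31 at a cutoff of 5. The share of *Ccl21a*-positive cells with *Ccl21a.1* or *Ccl21b.1*, 20.5%, became 12.2% thinned.

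The share of *Ptprc*-positive cells with a *Ccl21a* UMI, 93.6%, became 82.9% with no *Epcam* UMI and 67.1% thinned. For *Ccl19*, 48.9% became 29.3% with no *Epcam* UMI, 59.4% with at least 2 T cell markers and 26.8% thinned. Counts limit the precision of the minor entries: *Ccl21a.1* rests on 94 UMIs in all, with 38 in the shallowest library, and was not listed in the deepest, where it can have had UMIs in 1 or 2 cells. Giving the clustering its genes in another order, an alternative chosen after seeing the data, put 128 cells under another class name or none and gave log2 differences of *Ccl19* in Ccl21a-high-like cells of 1.22 at week 2 and -1.33 at week 10. The causes of these shifts were not tested.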
